A study of Mus musculus with 27 samples.

Results

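The 41 genes described here encode enzymes, carriers and regulators of fatty acid oxidation, together with further target genes of the receptor PPAR-alpha, measured in mouse hepatocytes. They are the rows of the deposited count table whose Ensembl ID carries a listed symbol in the GENCODE M21 annotation, 41 of the 43346 genes in the table. The list was drawn up by function and not by a level or a difference, though with earlier results of these data known. All 41 passed the filter on low counts, which left 14482 genes for testing.

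RNA was sequenced from hepatocytes of female mice aged 12 weeks, in 9 inbred strains with 3 libraries each. The wild-derived strains were PWK/PhJ, WSB/EiJ and CAST/EiJ, and the classical laboratory strains were NZO/HlLtJ, A/J, NOD/ShiLtJ, 129S1/SvImJ, DBA/2J and C57BL/6J. The groups differ by inbred genotype alone as labelled, with no transgene, targeted allele or treatment named for any of them. The labels call the 3 libraries of a strain biological replicates, and neither the feeding state of the mice nor the way the cells were purified is given in the sources used here. Chromatin was also profiled in the study, by its title, and the comparison made here asks which genes of this pathway differed in level between the strains.

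PPAR-alpha is a nuclear receptor that binds fatty acids and, paired with RXR, raises transcription of genes for fatty acid uptake, oxidation and ketone body formation, above all in the fasting liver. Fatty acids are first joined to coenzyme A, and long chains then enter mitochondria through the carnitine shuttle and are shortened there by repeated rounds of beta-oxidation. Peroxisomes shorten very long chains, and the liver exports part of the resulting acetyl units as ketone bodies.

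Library totals ran from 17015956 to 35078511 counts. Levels are given as CPM, counts scaled to the size of their library, after correction by TMM (a factor per library that balances composition). All 10 hepatocyte markers were above 0 in all 27 libraries. In CPM, Alb, which encodes albumin, ran from 80420 to 266100 and the liver regulator Hnf4a, the lowest of the 10 in mean level, from 208.7 to 482.3. As a ratio of highest to lowest library, Serpina1c had the widest span, from 47.18 to 15800 CPM. RNA of other liver cells was present at low level and unevenly. The summed level of 10 Kupffer cell markers (liver macrophages) ran from 35.04 CPM in a DBA/2J library to 442 CPM in a PWK/PhJ library, and all 10 were above 0 in all libraries, as were all 10 endothelial markers, whose sum ran from 57.03 to 706 CPM. Of 6 bile duct markers, Cftr was at 0 counts in 22 of 27 libraries, Krt7 in 16, Krt19 in 13 and Epcam in 6, while Sox9 and Spp1 were at 0 in none, and their sum ran from 1.60 to 9.64 CPM. C57BL/6J replicate 1 stood apart for the genes described here. It was the highest of its 3 libraries for 38 of the 41, against 41.7% of all genes tested. The edgeR counts and log2 fold changes of C57BL/6J are therefore also given without it.

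Of the 41, 31 (75.6%) differed among the 9 strains at an adjusted p under 0.05 (edgeR quasi-likelihood F test, Benjamini-Hochberg over all genes tested), against 74.2% of all genes tested. Without C57BL/6J replicate 1 the count was 38, against 75.6% of all genes tested in that fit. The highest strain exceeded the lowest by 1.92-fold in the median over the 41 and by 1.92-fold over all genes tested, and 18 of the 41 (43.9%) reached a 2-fold range, against 45.7%. Among genes averaging at least 10 CPM, 29 of 39 of the set (74.4%) passed the test, against 80.1% of all such genes, and 43.6% reached a 2-fold range, against 36.5%. The 10 that did not pass the test were Fabp1, Crat, Acadl, Hadha, Hadhb, Hadh, Decr1, Etfdh, Hsd17b4 and Acot1. The genes that differed most were Vnn1 at 24.9-fold, Pdk4 at 6.49-fold, Acot2 at 4.15-fold, Acot3 at 3.97-fold and Slc27a2 at 3.08-fold, and the flattest was Hadha at 1.30-fold. Since these are bulk samples, a lower level from fewer cells of a type and one from less RNA per cell cannot be told apart.

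**Figure D1:**
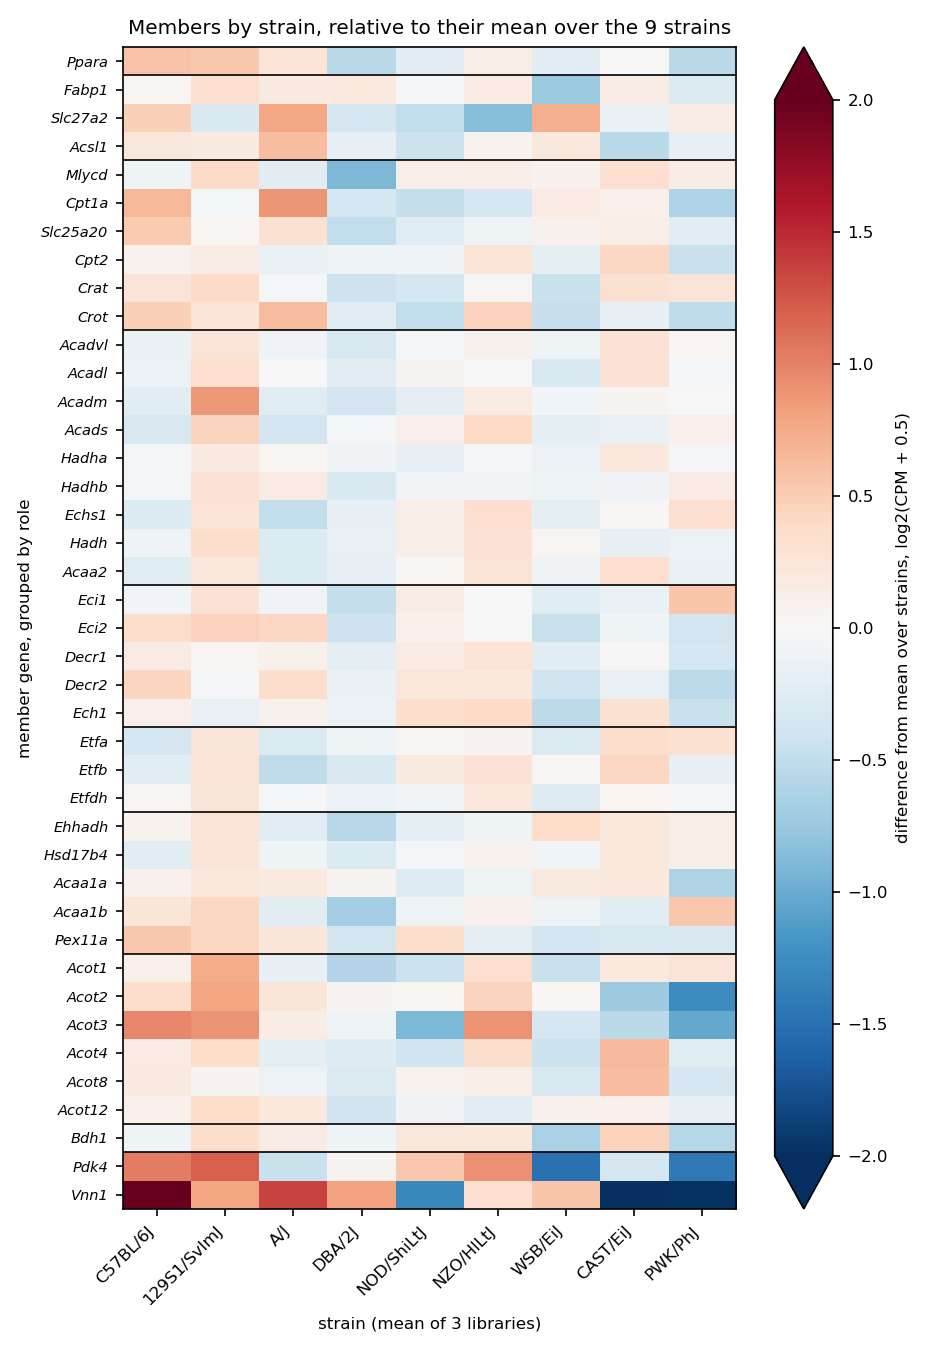
Each row is 1 of the 41 genes, grouped by role, and each column is a strain. Colour gives the mean of its 3 libraries on the log2(CPM + 0.5) scale minus the mean over the 9 strains, from blue (lower) to red (higher), with values past 2 drawn in the end colours. The rows of Vnn1 and Pdk4 at the bottom carry the strongest colours, while the mitochondrial enzymes from Acadvl to Acaa2 are pale apart from Acadm in 129S1/SvImJ.

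Between genes, levels per kilobase of transcript spanned a wide range. In mean CPM per kilobase over the 27 libraries the highest was the fatty acid carrier Fabp1 at 1763, followed by Slc27a2 at 501.8, Acaa1b at 405, Acaa2 at 335.5 and Acsl1 at 286. The lowest were Acot2 at 2.39, Pdk4 at 2.95 and Acot4 at 4.96. For 16 of the 41 an exon overlaps a gene on the opposite strand by up to 1151 bases, the longest being Acadvl with Dvl2, and since the counting is not stated to use strand, reads of the partners cannot be told apart. Among them are Slc27a2, Acsl1, Crot, Hadha, Echs1, Eci2, Acaa1a, Acaa1b, Acot3, Acot4, Acot8, Acot12 and Bdh1. The genes together took from 0.707% to 1.47% of all counts of a library.

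Each strain was next set against the mean of the other 8, in log2 fold changes from the same fit. C57BL/6J had 9 of the 41 higher and 0 lower, where 11.6% of all genes tested were higher and 6.5% lower. DESeq2 called 10 higher and 1 lower, against 11.8% and 8.64% of all genes. At an unadjusted p under 0.05 the counts were 13 and 2, and no share of all genes is given at that threshold. Those 9 were Ppara, Slc27a2, Cpt1a, Slc25a20, Crot, Decr2, Pex11a, Pdk4 and Vnn1, and their count moved with replicate 1. Without it 5 genes were higher and 5 lower, and the median log2 fold change of the 41 went from 0.16 to -0.19. The lower ones were then Acadm, Acads, Acaa2, Etfa and Hsd17b4. Over all genes tested, 11.7% were higher and 8.68% lower without it. Without replicate 4 the count was 5 higher and 0 lower, against 6.15% and 2.91% of all genes, and without replicate 2 it was 13 and 0, against 6.56% and 3.56%. Kupffer cell marker sums were 209.9 to 281 CPM in this strain, and with the Kupffer and endothelial list means as covariates 5 genes were higher and 0 lower, against 4.03% and 2.87%.

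The strain in which most of the genes leaned upwards was 129S1/SvImJ, with 10 higher and 0 lower, against 10.5% and 7.86% of all genes tested (edgeR). DESeq2 called 12 and 0, against 10.6% and 10.8% of all genes. At an unadjusted p under 0.05 it had 20 and 1, and no share of all genes is given at that threshold. The log2 fold change was above 0 for 37 of the 41, with a median of 0.34 against 0.02 over all genes, and the median lay between 0.27 and 0.39 with each of its libraries left out. The count was less steady, at 3 without replicate 1, 8 without replicate 2 and 6 without replicate 3, all higher, where 6.03%, 6.1% and 7.34% of all genes tested were higher. The sum of Kupffer cell markers was 42.7 to 91.2 CPM here, among the lowest, and with the 2 list means as covariates the count was 5, against 6.64% higher among all genes.

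A/J had 8 genes higher and 2 lower, against 15.9% and 11.6%. The higher ones were Slc27a2, Acsl1, Cpt1a, Slc25a20, Crot, Eci2, Decr2 and Vnn1, and the lower ones were Echs1 and Etfb. Without replicate 1 the counts were 5 and 4, where 14.4% and 11.7% of all genes were called. Without replicate 2 they were 5 and 1 (11.9% and 7.83% of all genes), and without replicate 3 they were 7 and 0 (8.37% and 4.9%). The median log2 fold change was 0.03 and lay between -0.09 and 0.22 in these fits. NZO/HlLtJ had 5 higher and 1 lower, against 14.8% and 12.9%. Its counts were 0 and 1 without replicate 1 (8.46% and 5.57% of all genes), 1 and 1 without replicate 2 (8.25% and 5.77%) and 2 and 1 without replicate 3 (11.1% and 9.8%). With the list means as covariates they were 0 and 2, against 7.13% and 4.79%.

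DBA/2J had 1 gene higher and 8 lower, against 9.5% and 3.78% of all genes tested. Its median log2 fold change was -0.26, and 5 of the 41 were above 0. The lower ones were Mlycd, Slc25a20, Acadvl, Eci1, Eci2, Ehhadh, Acaa1b and Acot12, and the higher one was Vnn1. Without replicate 2 the counts were 1 and 2 (6.45% and 2.12% of all genes) and without replicate 3 they were 0 and 3 (6.2% and 2.03%). With the list means as covariates they were 1 and 13, against 12.9% and 7.05%. Kupffer cell marker sums ran from 35.04 to 195 CPM among the 3 libraries.

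WSB/EiJ had 1 higher and 8 lower, against 15.5% and 9.25%. The median log2 fold change was -0.20, and it was -0.10 without replicate 2, -0.09 without replicate 3 and -0.33 without replicate 4. The lower ones were Fabp1, Crot, Eci2, Decr2, Ech1, Pex11a, Bdh1 and Pdk4, and the higher one was Slc27a2. Without replicate 3 the counts were 1 and 1 (10.5% and 5.4% of all genes) and without replicate 2 they were 2 and 4 (12% and 6.46%). With the list means as covariates they were 2 and 12, against 20.2% and 13.2%. NOD/ShiLtJ had 0 higher and 5 lower, against 9.2% and 5.72%, namely Slc27a2, Acsl1, Cpt1a, Crot and Vnn1. DESeq2 called 0 higher and 5 lower, as edgeR did, against 9.11% and 7.51% of all genes. At an unadjusted p under 0.05 NOD/ShiLtJ had 3 higher and 9 lower, and no share of all genes is given at that threshold. Vnn1 alone was called without replicate 1 and without replicate 3, where 3.46% and 3.2% of all genes were lower, and without replicate 2 there were 2 lower genes, against 3.03%.

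CAST/EiJ had 7 higher and 3 lower, against 20.1% and 17.8%, both under the share of all genes. Without replicate 1 the counts were 2 and 3 (14.4% and 12.6% of all genes) and without replicate 4 they were 1 and 4 (15.4% and 12.8%), while leaving out C57BL/6J replicate 1 gave 12 and 4 (21.2% and 18%). PWK/PhJ had 3 higher and 12 lower, against 19.4% and 14.8%. Its higher genes were Echs1, Eci1 and Acaa1b, and its lower ones reached from Ppara and Cpt1a to Vnn1. Without replicate 1 the counts were 3 and 6, against 14.1% and 12.5% of all genes, and without replicate 2 they were 1 and 9, against 16% and 10.5%. Replicate 1 had the highest Kupffer and endothelial sums, at 442 and 706 CPM. The remaining PWK/PhJ libraries had endothelial sums down to 216.3 CPM. The part of these cells in the counts was not tested beyond the fit with both list means as covariates. That fit called 11 genes in PWK/PhJ in place of 15, where 15.3% of all genes were higher and 14.9% lower. The genome to which reads of these wild-derived strains were aligned is not given in the sources used here, and its part in their differences, those of Vnn1 and Acot2 among them, was not tested.

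**Figure D2:**
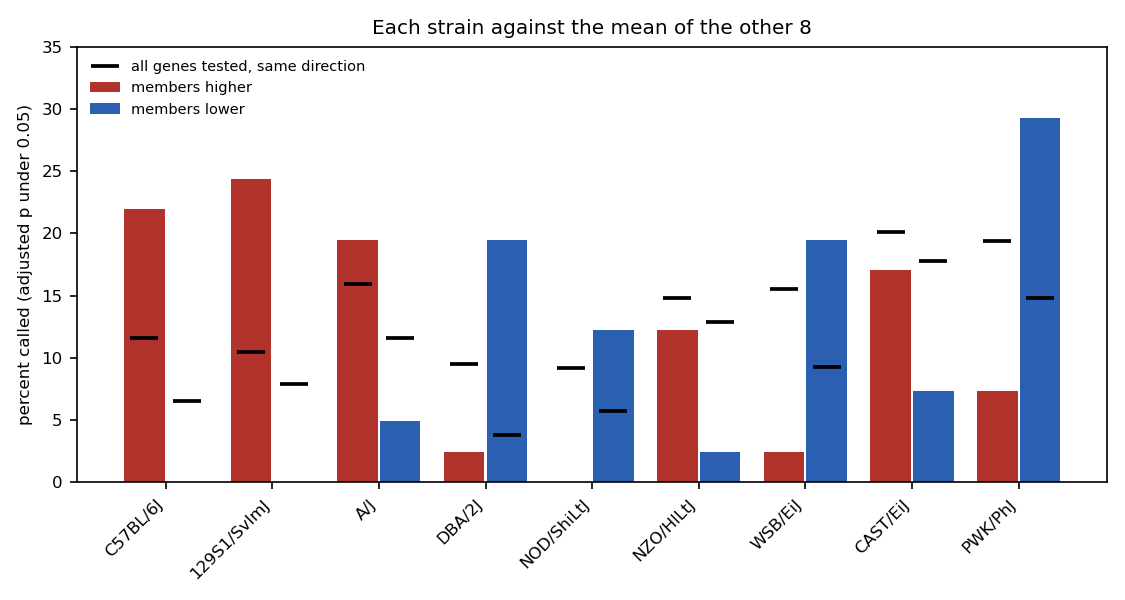
Bars give the percent of the 41 genes called higher (red) or lower (blue) in each strain against the mean of the other 8, at an adjusted p under 0.05, and black ticks give the same percent over all 14482 genes tested. Red bars stand above their ticks in A/J, C57BL/6J and 129S1/SvImJ, and blue bars stand above theirs in DBA/2J, NOD/ShiLtJ, WSB/EiJ and PWK/PhJ.

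Over the 9 strains, 83 of these strain differences were called, and 26 of them, in 15 genes, were also called with each library of that strain left out in turn. These are 31.3% of the calls, against 46% of the 31374 such calls over all genes tested. They were Vnn1, Slc25a20 and Pex11a in C57BL/6J, Acadm, Acot2 and Pdk4 in 129S1/SvImJ, and Slc27a2, Acsl1, Cpt1a, Crot and Vnn1 in A/J. They were also Mlycd and Slc25a20 in DBA/2J, Vnn1 in NOD/ShiLtJ, Slc27a2 in NZO/HlLtJ, and Slc27a2 and Pdk4 in WSB/EiJ. The rest were Acot2, Acot8 and Vnn1 in CAST/EiJ and Acaa1a, Acot2, Decr2, Eci1, Pdk4 and Vnn1 in PWK/PhJ. Of the 41 genes, 11 (26.8%, against 20.1% of all genes tested) were called in no single strain: Acadl, Hadha, Hadhb, Hadh, Hsd17b4, Decr1, Etfa, Etfdh, Crat, Acot1 and Acot3.

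The receptor itself, Ppara, was highest in C57BL/6J and 129S1/SvImJ. Its libraries read 100.4, 55.9 and 70.4 CPM in C57BL/6J and 97.7, 59.7 and 64.4 CPM in 129S1/SvImJ. The lowest strains were DBA/2J, at 32.5, 29.98 and 39.3 CPM, and PWK/PhJ, at 30.3, 29.6 and 42.8 CPM. The libraries of both low strains lay under all those of both high strains. Between them the strain means were 61.6 ± 19.4 CPM (SD, n = 3) in A/J, 53.8 ± 6.98 in NZO/HlLtJ, 51.7 ± 16.2 in CAST/EiJ, 43.1 ± 12 in WSB/EiJ and 42.7 ± 8.61 in NOD/ShiLtJ, and the libraries of neighbours in this order overlapped. Ppara differed among strains (edgeR, adjusted p = 0.00209) with a 2.16-fold range. No call for a single strain held without each library of that strain. The log2 fold change in C57BL/6J was 0.66 ± 0.19 (SE; adjusted p = 0.0164), and it was 0.40 (adjusted p = 0.207) without replicate 1 and 0.71 (adjusted p = 0.0555) without replicate 4. In 129S1/SvImJ it was 0.63 ± 0.19 (adjusted p = 0.0246) and 0.37 (adjusted p = 0.334) without replicate 1. In PWK/PhJ it was -0.62 ± 0.21 (adjusted p = 0.0265), -0.54 (adjusted p = 0.129) without replicate 1 and -0.53 (adjusted p = 0.142) without replicate 2.

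PPAR-alpha and RXR bind paired half-sites of the form AGGTCA set 1 base apart (a DR1 element), so the starts of the genes were searched for them. The windows reach from 250 bases before to 50 bases after each gene's start in RefSeq (GRCm38.p6). Windows of 36 of the 41 genes were searched, and the other 5 genes were not searched. Both strands were read, and mismatches were counted over the 12 half-site bases. With at most 1 mismatch, 2 of 36 genes (5.56%) held a match, against 0.644% of 27025 genes searched with a window of the same length. With at most 2 mismatches it was 6 of 36 (16.7%) against 4.4%. The list was made to hold PPAR-alpha targets, so a higher share than in all genes can follow from that choice. The comparison rests on few genes and was not tested. No window of the 36 held a full match. The 2 closest are shown because they are the windows with at most 1 mismatch, with the match in capitals. The window of Fabp1 is chr6:71199629-71199928 (plus strand) and that of Acot12 is chr13:91741271-91741570 (plus strand), and both matches lie on the minus strand, from base -67 and base -110 relative to the start.
Fabp1: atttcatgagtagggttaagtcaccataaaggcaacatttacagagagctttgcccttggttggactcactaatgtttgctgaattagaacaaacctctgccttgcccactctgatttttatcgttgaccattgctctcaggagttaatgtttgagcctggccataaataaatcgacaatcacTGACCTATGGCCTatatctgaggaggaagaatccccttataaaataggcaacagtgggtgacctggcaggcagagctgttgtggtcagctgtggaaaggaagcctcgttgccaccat
Acot12: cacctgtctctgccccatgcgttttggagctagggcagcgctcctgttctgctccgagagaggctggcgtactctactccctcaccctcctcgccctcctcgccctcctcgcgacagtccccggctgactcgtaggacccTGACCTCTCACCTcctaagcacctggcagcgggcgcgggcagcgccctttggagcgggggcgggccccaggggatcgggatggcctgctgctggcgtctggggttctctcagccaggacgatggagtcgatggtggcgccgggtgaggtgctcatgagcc
The other 4, with 2 mismatches, were Acot4, Echs1, Etfa and Slc25a20. A match is a run of letters, and binding was not measured here. Only the reference sequence was searched, and no strain's own sequence was compared, so a match does not bear on a strain difference. Of these 6 genes, Slc25a20 held its strain differences in C57BL/6J and DBA/2J without each library, and the others held none.

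**Figure D3:**
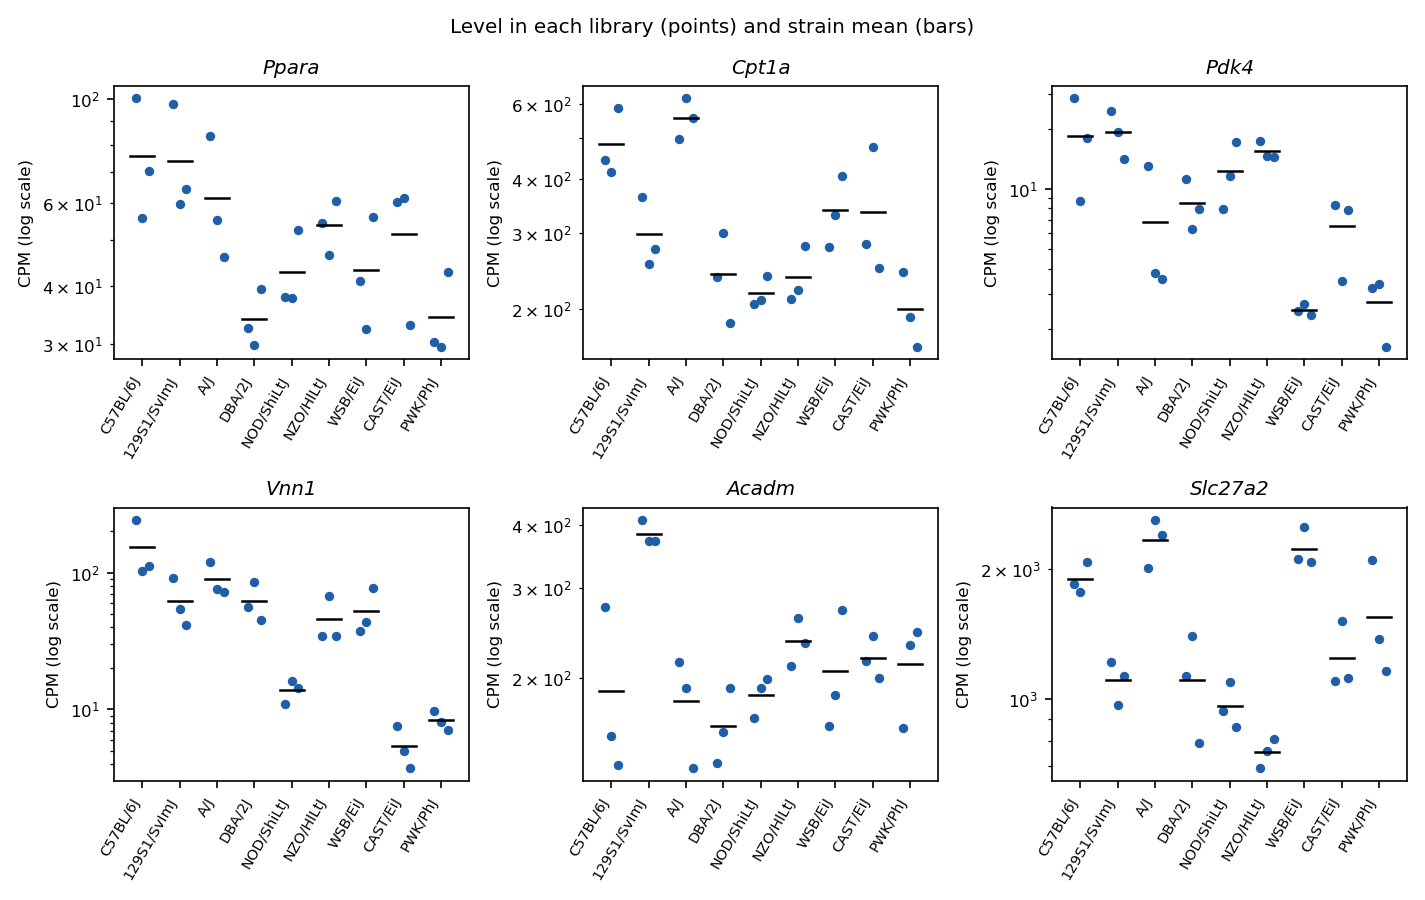
Each panel shows 1 gene, with a point for each library (CPM, log scale) and a bar at the mean of the 3 libraries of a strain. Vnn1 falls from C57BL/6J, at 103 to 242 CPM, to CAST/EiJ, at 3.71 to 7.54 CPM, and the 3 Acadm libraries of 129S1/SvImJ lie above all 24 others.

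Among the genes for binding, uptake and activation of fatty acids, Slc27a2 and Acsl1 differed among strains and Fabp1 did not pass the test. Slc27a2, an acyl-CoA synthetase that also carries very long chains, read 2008, 2598 and 2393 CPM in A/J, 2104, 2506 and 2073 CPM in WSB/EiJ and 1850, 1768 and 2071 CPM in C57BL/6J. At the other end it read 691, 759 and 809.7 CPM in NZO/HlLtJ. The NZO/HlLtJ libraries lay under all those of the 3 high strains. The strain means between were 1546 ± 489 CPM in PWK/PhJ, 1245 ± 234 in CAST/EiJ, 1108 ± 306 in DBA/2J, 1105 ± 125 in 129S1/SvImJ and 965 ± 120 in NOD/ShiLtJ. The log2 fold change was 0.87 ± 0.15 in A/J (adjusted p = 0.000107), 0.79 ± 0.15 in WSB/EiJ (0.000263) and -0.97 ± 0.17 in NZO/HlLtJ (0.000186), each ± SE.

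Acsl1, the main long-chain acyl-CoA synthetase of liver, was also highest in A/J, at 1729, 1445 and 1790 CPM, and lowest in CAST/EiJ, at 816, 879.7 and 570.0 CPM, and NOD/ShiLtJ, at 794, 802 and 799.8 CPM. The A/J libraries lay above all of CAST/EiJ and NOD/ShiLtJ. The remaining strain means ran from 967 ± 156 CPM in PWK/PhJ and 968 ± 137 in DBA/2J through 1129 ± 94.3 in NZO/HlLtJ, 1234 ± 162 in 129S1/SvImJ and 1254 ± 87.7 in WSB/EiJ to 1282 ± 276 in C57BL/6J. The A/J difference was 0.68 ± 0.13 on the log2 scale (adjusted p = 0.000392). Fabp1, the liver fatty acid binding protein, did not pass the test among strains (adjusted p = 0.0514). Its WSB/EiJ libraries read 842, 426 and 495 CPM, and the WSB/EiJ contrast was -0.79 ± 0.22 (adjusted p = 0.00909), but -0.61 (adjusted p = 0.108) without replicate 3 and -0.68 (adjusted p = 0.0746) without replicate 4.

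Of the 6 genes of the carnitine shuttle and its control, 5 differed among strains, all but Crat. The share was 74.2% over all genes tested and 80.1% over those averaging at least 10 CPM. Cpt1a, the rate-limiting carnitine acyltransferase of the outer mitochondrial membrane, was highest in A/J at 496, 617 and 557 CPM and C57BL/6J at 444, 417 and 585 CPM, and lowest in PWK/PhJ at 243, 191 and 163 CPM. The A/J and C57BL/6J libraries did not overlap those of PWK/PhJ. The other strains had means of 339 ± 64.9 CPM in WSB/EiJ, 336 ± 122 in CAST/EiJ, 298 ± 57.9 in 129S1/SvImJ, 240.5 ± 57.3 in DBA/2J, 237 ± 37 in NZO/HlLtJ and 217 ± 18 in NOD/ShiLtJ. On the log2 scale A/J was 0.98 ± 0.16 from the mean of the other 8 (adjusted p = 5.66e-05). The C57BL/6J difference was 0.75 ± 0.16 (adjusted p = 0.00166), 0.80 (adjusted p = 0.00532) without replicate 1 and 0.59 (adjusted p = 0.0568) without replicate 4, and that of PWK/PhJ was -0.69 ± 0.18 (adjusted p = 0.00464) and -0.56 (adjusted p = 0.0507) without replicate 3.

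Mlycd, which degrades malonyl-CoA, the inhibitor of Cpt1a, was low in DBA/2J at 28.3, 35.5 and 26.6 CPM. Its highest strain mean was 73.7 ± 13 CPM in 129S1/SvImJ, followed by 70.7 ± 7 in CAST/EiJ, 63.2 ± 12.2 in PWK/PhJ, 61.8 ± 5.06 in NZO/HlLtJ, 60.7 ± 4.45 in NOD/ShiLtJ, 60.1 ± 10.8 in WSB/EiJ, 54.6 ± 17.7 in C57BL/6J and 48.7 ± 11.9 in A/J. All 3 DBA/2J libraries lay under the other strains' libraries apart from A/J replicate 3, at 34.96 CPM. The DBA/2J difference was -1.02 ± 0.17 (adjusted p = 0.000115).

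Slc25a20, the carnitine-acylcarnitine carrier of the inner membrane, read 132, 99.5 and 110.2 CPM in C57BL/6J and 52.95, 65.1 and 48.9 CPM in DBA/2J, with no overlap. Means of the other strains lay between, at 96.6 ± 4.39 CPM in A/J, 86.2 ± 9.73 in CAST/EiJ, 84.2 ± 18 in WSB/EiJ, 79.96 ± 8.87 in 129S1/SvImJ, 73.4 ± 7.12 in NZO/HlLtJ, 67.9 ± 11.3 in PWK/PhJ and 65.9 ± 0.947 in NOD/ShiLtJ. It was higher in C57BL/6J by 0.60 ± 0.11 (adjusted p = 0.000426) and in DBA/2J its log2 fold change was -0.56 ± 0.13 (0.0025). With the Kupffer and endothelial list means as covariates the C57BL/6J value was 0.45 and no longer called, and without replicate 1 it was 0.48 (adjusted p = 0.0131).

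Crot, which moves medium chains from coenzyme A to carnitine in peroxisomes, had higher means in 4 of the classical strains than in the other 5 strains. They were 753 ± 207 CPM in A/J, 665 ± 150 in C57BL/6J, 651 ± 113 in NZO/HlLtJ and 589 ± 190 in 129S1/SvImJ. Below these, with overlapping libraries, lay 421 ± 35.4 in CAST/EiJ, 407 ± 97.8 in DBA/2J, 347 ± 59 in WSB/EiJ, 337 ± 43.1 in NOD/ShiLtJ and 334 ± 46.4 in PWK/PhJ. The A/J difference was 0.74 ± 0.16 (adjusted p = 0.00163) and was the one that held without each library. Cpt2, the inner-membrane acyltransferase, was 0.46 ± 0.15 in CAST/EiJ (adjusted p = 0.0215) and -0.49 ± 0.17 in PWK/PhJ (0.0274). Without CAST/EiJ replicate 1 the former was 0.44 (adjusted p = 0.0888), and without PWK/PhJ replicate 1 the latter was -0.33 (adjusted p = 0.222).

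The 9 enzymes of the mitochondrial spiral were the flattest of the larger groups, with a median range of 1.54-fold. The median was 1.92-fold over all genes tested and 1.78-fold over those averaging at least 10 CPM. Of the 9, 5 differed among strains, against 74.2% of all genes tested and 80.1% of those averaging at least 10 CPM. The exception to this flatness was Acadm, the medium-chain acyl-CoA dehydrogenase, in 129S1/SvImJ. It read 409, 371 and 371 CPM there, above each of the 24 libraries of the other strains. Those strains had means of 236 ± 25.2 CPM in NZO/HlLtJ, 219 ± 21.4 in CAST/EiJ, 212 ± 46.4 in PWK/PhJ, 206 ± 58.4 in WSB/EiJ, 188 ± 76.5 in C57BL/6J, 185 ± 16.6 in NOD/ShiLtJ, 179.7 ± 42.4 in A/J and 161 ± 27.5 in DBA/2J. The 129S1/SvImJ difference was 0.96 ± 0.16 on the log2 scale (adjusted p = 0.000135) and kept its call under all alternatives run. The short-chain dehydrogenase Acads was 0.48 ± 0.14 in 129S1/SvImJ (adjusted p = 0.0229), and was not called without replicate 1, 2 or 3, at 0.48 (adjusted p = 0.0966), 0.53 (adjusted p = 0.059) and 0.44 (adjusted p = 0.104).

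Hadha, the alpha subunit of the trifunctional protein, stayed within 1.30-fold. Its highest strain was CAST/EiJ at 309.6, 330.5 and 250.1 CPM and its lowest NOD/ShiLtJ at 226, 226 and 226 CPM. The other means were 289.8 ± 23.9 CPM in 129S1/SvImJ, 263 ± 38 in A/J, 254 ± 51.3 in C57BL/6J, 249 ± 13.9 in NZO/HlLtJ, 249 ± 21.6 in PWK/PhJ, 244 ± 32.6 in DBA/2J and 235 ± 33.1 in WSB/EiJ. The test among strains gave an adjusted p of 0.265, and its partner Hadhb gave 0.0901. The very-long-chain and long-chain dehydrogenases had ranges of 1.52-fold for Acadvl and 1.56-fold for Acadl, Hadh had 1.54-fold and the thiolase Acaa2 1.52-fold. Echs1, the short-chain hydratase, ranged 1.78-fold from A/J up to PWK/PhJ (adjusted p = 0.000556).

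Auxiliary enzymes, which prepare the double bonds of unsaturated chains, differed among strains for 4 of 5 genes. This is near the shares of 74.2% of all genes tested and 80.1% of those averaging at least 10 CPM. Eci1 was highest in PWK/PhJ at 95.2, 123 and 121 CPM and Decr2 was lowest there, at 72.7 ± 9.63 CPM against 144 ± 37.3 in C57BL/6J. The PWK/PhJ differences were 0.62 ± 0.15 for Eci1 (adjusted p = 0.00224) and -0.59 ± 0.14 for Decr2 (0.0024). The mitochondrial Eci1 was thus higher and the peroxisomal Decr2 lower in the same strain. Eci2 ran from 76.7 ± 17.6 CPM in WSB/EiJ to 142 ± 17.3 in 129S1/SvImJ, and Ech1 from 119.9 ± 29.5 in WSB/EiJ to 224 ± 32.9 in NZO/HlLtJ. Of the electron carriers that take up the electrons of the dehydrogenases, Etfa ranged 1.63-fold (adjusted p = 0.0367), Etfb 1.90-fold (0.0118) and Etfdh 1.41-fold (0.253).

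In the peroxisomal group, Ehhadh, the bifunctional enzyme and a standard PPAR-alpha target, was lowest in DBA/2J at 230.3, 257 and 238 CPM. The other means were 471 ± 98.3 CPM in WSB/EiJ, 451 ± 127 in 129S1/SvImJ, 426 ± 90.3 in CAST/EiJ, 404 ± 181 in C57BL/6J, 395 ± 43.6 in PWK/PhJ, 343 ± 46.8 in NZO/HlLtJ, 321 ± 88.9 in A/J and 313 ± 12.2 in NOD/ShiLtJ. Its libraries spread widely in C57BL/6J, at 608, 265 and 339 CPM, and those of DBA/2J overlapped those of A/J. The test among strains gave an adjusted p of 0.0399, and it was above 0.05 with any 1 of 15 libraries left out, up to 0.102 without DBA/2J replicate 2. The DBA/2J contrast of -0.68 ± 0.21 (adjusted p = 0.0287) was lost without any 1 of the 3 DBA/2J libraries, with -0.64 (adjusted p = 0.145) without replicate 2, -0.72 (adjusted p = 0.0912) without replicate 3 and -0.67 (adjusted p = 0.0867) without replicate 4. Pex11a, which takes part in peroxisome division, was highest in C57BL/6J at 78.5, 37.2 and 59.8 CPM, a difference of 0.68 ± 0.13 (adjusted p = 0.00071). It was 0.41 (adjusted p = 0.0456) without replicate 1 and 0.92 (adjusted p = 1.31e-05) without replicate 2, and the libraries overlapped those of 129S1/SvImJ. Hsd17b4, the second bifunctional enzyme, ranged 1.44-fold and did not pass the test (adjusted p = 0.181).

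The peroxisomal thiolases Acaa1a (chr9:119339676-119350299, plus strand) and Acaa1b (chr9:119148023-119157093, minus strand; GRCm38 in GENCODE M21) are near-identical copies. Their coding sequences are 96.5% identical over 1272 bases, with 327 identical bases in the longest run, so reads can fit both. Coding bases 637 to 726 are shown to give the density of differences, with the 3 bases that differ in capitals.
Acaa1a: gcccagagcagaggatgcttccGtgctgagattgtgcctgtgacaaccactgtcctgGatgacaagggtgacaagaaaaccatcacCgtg
Acaa1b: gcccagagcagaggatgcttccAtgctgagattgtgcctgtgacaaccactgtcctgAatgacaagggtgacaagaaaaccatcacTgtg
Both had counts that were not whole numbers in all 27 libraries, as estimated counts can be where reads fit more than 1 gene. PWK/PhJ was lowest for Acaa1a, at 77.5, 73.1 and 80.3 CPM, below each of the 24 other libraries, and highest for Acaa1b, at 1048, 1035 and 797 CPM. The differences were -0.71 ± 0.15 for Acaa1a (adjusted p = 0.000552) and 0.60 ± 0.17 for Acaa1b (0.00919), the latter 0.53 (adjusted p = 0.0642) without replicate 1 and 0.54 (adjusted p = 0.0648) without replicate 2. The division of reads between the copies was not tested. Added together, which was chosen after the data were seen, the pair was 0.44 ± 0.16 higher in PWK/PhJ (adjusted p = 0.0404) and -0.63 ± 0.18 in DBA/2J (0.0197). Acaa1b alone was lowest in DBA/2J at 354, 476 and 406 CPM, a difference of -0.78 ± 0.20 (adjusted p = 0.00722) that was -0.68 (adjusted p = 0.0823) without replicate 2. Its other means were 878 ± 147 CPM in 129S1/SvImJ, 793 ± 216 in C57BL/6J, 702 ± 82.1 in NZO/HlLtJ, 627 ± 118 in NOD/ShiLtJ, 622 ± 131 in WSB/EiJ, 588 ± 207 in A/J and 576 ± 107 in CAST/EiJ.

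Acyl-CoA thioesterases release free fatty acids from coenzyme A, and Acot1 to Acot4 sit side by side on chromosome 12. Acot1 and Acot2 code for a cytosolic and a mitochondrial form and share 95.3% of 1236 aligned coding bases, against 83.9% between Acot1 and Acot3 and 74.6% between Acot1 and Acot4. Matching stretches of Acot1 (coding bases 568 to 657) and Acot2 (691 to 780) are shown because reads from them can be placed in either, with the 3 differing bases in capitals.
Acot1: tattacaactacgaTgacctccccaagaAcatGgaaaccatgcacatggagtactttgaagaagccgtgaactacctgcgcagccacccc
Acot2: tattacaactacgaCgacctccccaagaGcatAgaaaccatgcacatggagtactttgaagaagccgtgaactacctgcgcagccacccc
Acot2 was low in both PWK/PhJ, at 1.24, 2.34 and 1.66 CPM, and CAST/EiJ, at 2.42, 3.14 and 2.58 CPM, and the PWK/PhJ libraries lay below all 24 others. It was highest in 129S1/SvImJ at 8.50, 9.87 and 7.63 CPM. The strains between had means of 6.67 ± 0.63 CPM in NZO/HlLtJ, 6.57 ± 2.96 in C57BL/6J, 5.96 ± 2.21 in A/J, 5.03 ± 1.43 in WSB/EiJ, 5.01 ± 0.876 in DBA/2J and 4.91 ± 0.483 in NOD/ShiLtJ. The log2 fold change was -1.63 ± 0.25 in PWK/PhJ (adjusted p = 1.27e-05), -0.92 ± 0.23 in CAST/EiJ (0.00288) and 0.96 ± 0.19 in 129S1/SvImJ (0.00074). Acot1, in contrast, read 21.1, 41.7 and 34.2 CPM in PWK/PhJ and did not pass the test among strains (adjusted p = 0.0788). With the 4 genes added together, PWK/PhJ was at -0.39 ± 0.31 (adjusted p = 0.363), no strain was called (the lowest adjusted p was 0.111, in 129S1/SvImJ), and the test among strains gave 0.0429.

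Of the 41 genes, Acot3 and Acot1 spread most between libraries of the same strain. Acot3, a peroxisomal form, had a within-strain SD of 0.85 on the log2 scale and Acot1 of 0.61, against a median of 0.27 over the 41 genes and 0.25 over all genes tested. Acot1 read 86.8, 12.4 and 19.8 CPM in C57BL/6J, where replicate 1 stood far above the others, and Acot3 read 24.2, 83.95 and 10.8 CPM in A/J, where replicate 2 did. Means of Acot3 were 56.6 ± 30.8 CPM in C57BL/6J, 49.6 ± 16.5 in NZO/HlLtJ, 47.9 ± 4.45 in 129S1/SvImJ, 39.6 ± 38.9 in A/J, 24.4 ± 5.49 in DBA/2J, 23.5 ± 15.3 in WSB/EiJ, 18.4 ± 7.12 in CAST/EiJ, 14.9 ± 7.74 in NOD/ShiLtJ and 13.4 ± 6.43 in PWK/PhJ. It differed among strains (adjusted p = 0.0148), but not with the Kupffer and endothelial list means as covariates (0.0718), and no strain was called. Acot4, also peroxisomal, was highest in CAST/EiJ at 41.4, 51.98 and 44.2 CPM, and its other means ran from 21.9 ± 5.95 CPM in WSB/EiJ, 22.04 ± 2.04 in NOD/ShiLtJ, 24.2 ± 2 in DBA/2J and 25.5 ± 8.58 in PWK/PhJ up to 28.3 ± 15 in A/J, 34.2 ± 13.6 in C57BL/6J, 37.5 ± 5.66 in NZO/HlLtJ and 37.5 ± 3.07 in 129S1/SvImJ. The CAST/EiJ difference of 0.70 ± 0.21 (adjusted p = 0.0114) was 0.60 (adjusted p = 0.0876) without replicate 4. Acot8, a peroxisomal form outside the cluster, was 0.73 ± 0.14 in CAST/EiJ (adjusted p = 0.00025), and Acot12, a cytosolic acetyl-CoA thioesterase, ranged 1.72-fold (0.0133).

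**Figure D4:**
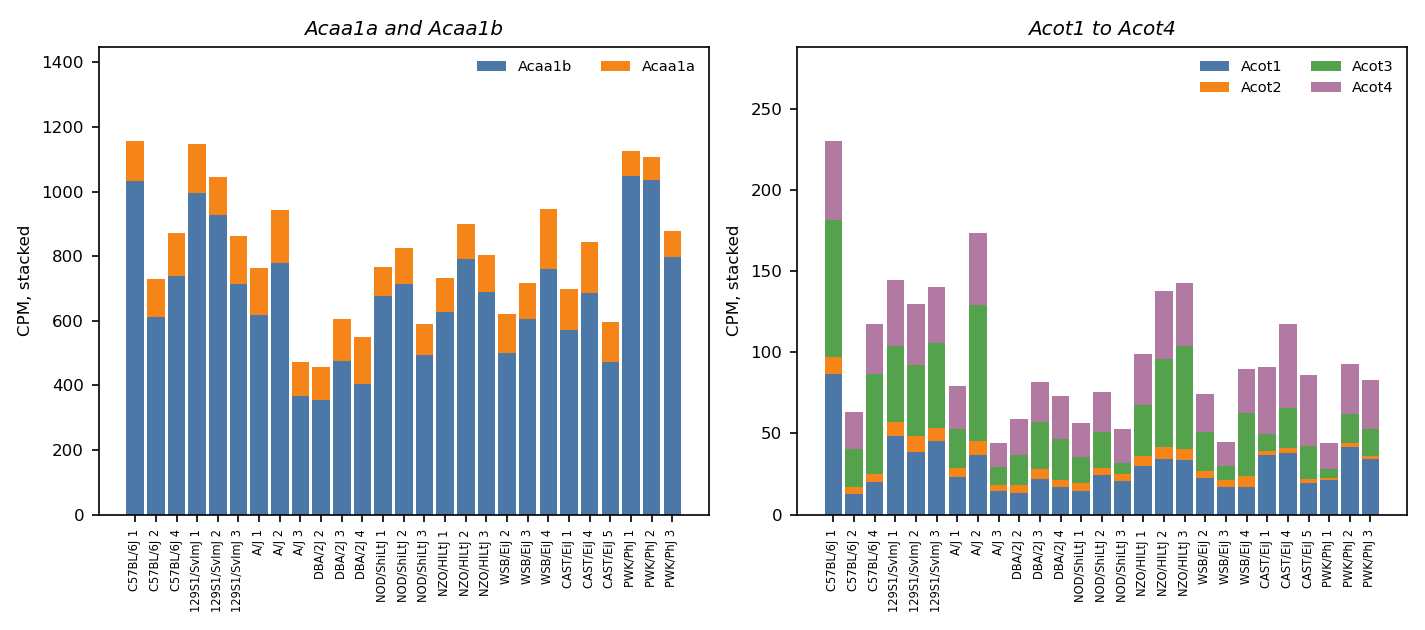
Stacked bars give CPM per library for the copies Acaa1a and Acaa1b (left) and for the neighbours Acot1 to Acot4 (right). The orange Acaa1a segment is thinnest in the 3 PWK/PhJ libraries, at 73.1 to 80.3 CPM, while their Acaa1b segment is among the tallest, and C57BL/6J replicate 1 has the tallest Acot stack.

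Bdh1, the mitochondrial enzyme that interconverts the ketone bodies acetoacetate and beta-hydroxybutyrate, was highest in CAST/EiJ at 229, 293 and 178 CPM. It was lowest in WSB/EiJ at 116, 86.3 and 118 CPM and PWK/PhJ at 85.9, 114 and 142 CPM. The CAST/EiJ libraries did not overlap those of either low strain. Other means were 213 ± 36.3 CPM in 129S1/SvImJ, 194 ± 8.67 in NOD/ShiLtJ, 192 ± 29.1 in NZO/HlLtJ, 189 ± 46.5 in A/J, 162 ± 55.9 in C57BL/6J and 159 ± 42.7 in DBA/2J. Bdh1 differed among strains (adjusted p = 0.00332). The WSB/EiJ contrast of -0.74 ± 0.20 (adjusted p = 0.00706) was -0.61 (adjusted p = 0.0805) without replicate 3.

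Pdk4 encodes a kinase that switches off pyruvate dehydrogenase when fat is burned, and it formed a high and a low set of strains. The libraries read 24.5, 19.3 and 14.1 CPM in 129S1/SvImJ, 28.4, 8.71 and 18.1 CPM in C57BL/6J and 17.3, 14.6 and 14.4 CPM in NZO/HlLtJ. They read 2.44, 2.66 and 2.35 CPM in WSB/EiJ and 3.19, 3.37 and 1.63 CPM in PWK/PhJ, all under every library of those 3 strains. NOD/ShiLtJ, DBA/2J, A/J and CAST/EiJ lay between, with means of 12.2 ± 4.61, 8.49 ± 2.52, 6.80 ± 5.42 and 6.53 ± 2.65 CPM. The log2 fold change was 1.39 ± 0.28 in 129S1/SvImJ (adjusted p = 0.00116), -1.94 ± 0.40 in WSB/EiJ (0.000812) and -1.79 ± 0.39 in PWK/PhJ (0.00085). The C57BL/6J value of 1.31 ± 0.29 (adjusted p = 0.00217) was 0.85 (adjusted p = 0.081) without replicate 1, and the NZO/HlLtJ value of 1.02 ± 0.29 (0.012) was 0.94 (adjusted p = 0.0828) without replicate 1.

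Vnn1 (chr10:23894688-23905343, plus strand), a pantetheinase that recycles pantothenic acid and a target of PPAR-alpha, differed between strains more than any of the other 40. C57BL/6J was highest at 242, 103 and 112 CPM, and A/J followed at 119.9, 76.1 and 72.3 CPM. NOD/ShiLtJ read 10.9, 16.2 and 14.3 CPM, PWK/PhJ 9.66, 8.14 and 7.10 CPM and CAST/EiJ 7.54, 4.92 and 3.71 CPM. These 3 low strains lay under every library of the other 6, the lowest of which was an NZO/HlLtJ library at 34.25 CPM. The middle strains had means of 62.2 ± 26.2 CPM in 129S1/SvImJ, 62.1 ± 21.1 in DBA/2J, 52.5 ± 20.9 in WSB/EiJ and 45.5 ± 19.3 in NZO/HlLtJ, which overlapped one another. On the log2 scale C57BL/6J was 2.39 ± 0.22 from the mean of the other 8 (adjusted p = 2.05e-08), A/J 1.52 ± 0.24 (4.8e-05), NOD/ShiLtJ -1.51 ± 0.32 (0.00136), PWK/PhJ -2.34 ± 0.34 (6.64e-06) and CAST/EiJ -3.02 ± 0.36 (2.78e-07). Without its replicate 1 C57BL/6J was 1.88 (adjusted p = 6.94e-06), and its other libraries, at 103 and 112 CPM, lay within the range of A/J. The test among strains gave an adjusted p of 1.9e-09.

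Libraries of the same strain often differed in the same direction for most of the 41 genes. Brackets give the share of all genes tested. C57BL/6J replicate 1 was the highest of 3 for 38 genes (41.7%), CAST/EiJ replicate 4 for 35 (31.2%) and WSB/EiJ replicate 4 for 34 (34.8%). A/J replicate 3 was the lowest of 3 for 37 (35.9%) and CAST/EiJ replicate 5 for 33 (37.9%). The median deviation from the strain mean was 0.45 on the log2(CPM + 0.5) scale in C57BL/6J replicate 1 and -0.39 in A/J replicate 3, where all genes tested had medians of 0 and -0.003. In C57BL/6J replicate 1 and A/J replicate 3 the count was 38 and 37 with median-of-ratios scaling and 40 and 40 with library totals. The share of a library's counts that the 41 genes took was tightest in NOD/ShiLtJ, at 0.913% ± 0.0232 (SD, n = 3), and widest in C57BL/6J, at 1.02% ± 0.318.

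**Figure D5:**
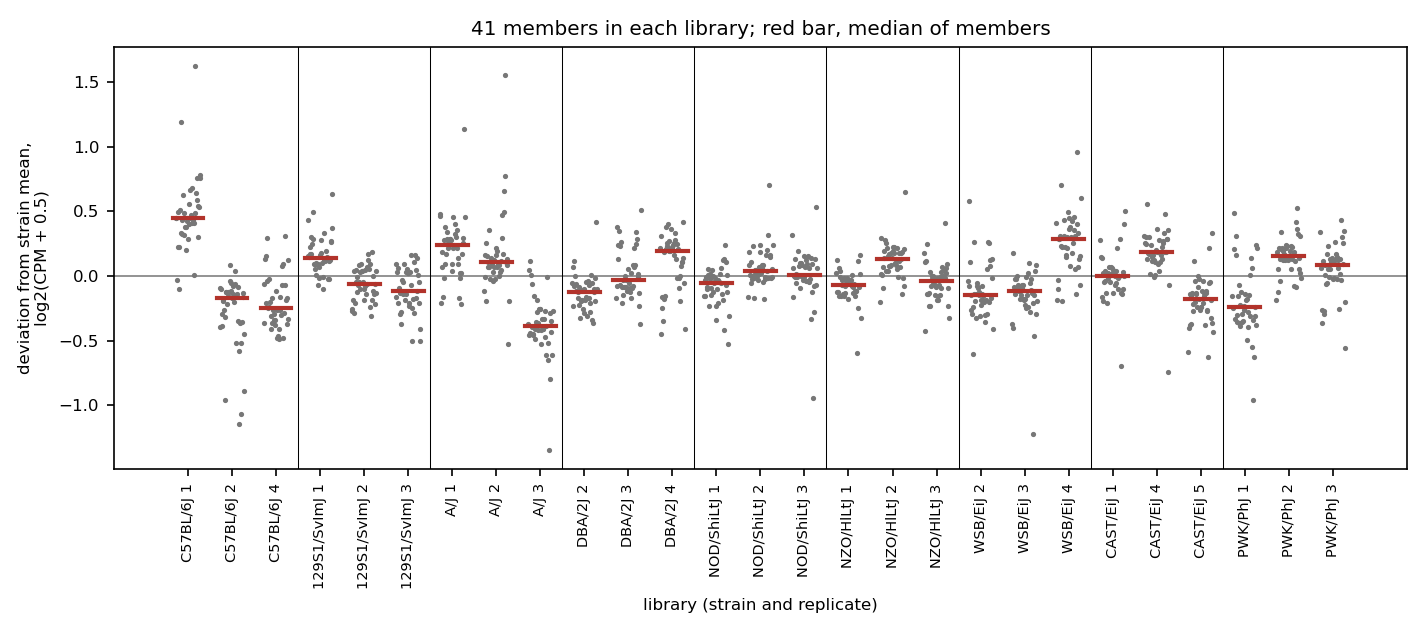
Each grey point is 1 of the 41 genes in a library, as its deviation from the mean of the 3 libraries of its strain on the log2(CPM + 0.5) scale, and red bars give the median of the 41. Red bars reach 0.45 in C57BL/6J replicate 1 and -0.39 in A/J replicate 3, and lie near 0 in the NOD/ShiLtJ libraries.

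A wider list of 65 other genes of the pathway was counted in the same fit. Of 64 tested, 56 (87.5%) differed among strains, against 74.2% of all genes tested and 80.1% of those averaging at least 10 CPM, with a median range of 2.19-fold against 1.92-fold over all genes tested. Against the mean of the other 8 strains, C57BL/6J had 17 of the 64 higher (26.6%, against 11.6% of all genes) and 6 lower (9.38% against 6.5%), and without replicate 1 it had 13 and 9, against 11.7% and 8.68% of all genes. In 129S1/SvImJ 17 were higher (26.6% against 10.5%) and 4 lower (6.25% against 7.86%). NOD/ShiLtJ had 2 higher (3.12% against 9.2%) and 8 lower (12.5% against 5.72%), and PWK/PhJ had 7 higher (10.9% against 19.4%) and 12 lower (18.8% against 14.8%). The shares higher and lower were 18.8% and 17.2% in A/J (15.9% and 11.6% of all genes), 7.81% and 6.25% in DBA/2J (9.5% and 3.78%), 15.6% and 15.6% in NZO/HlLtJ (14.8% and 12.9%), 20.3% and 10.9% in WSB/EiJ (15.5% and 9.25%) and 20.3% and 20.3% in CAST/EiJ (20.1% and 17.8%). Leaving out 1 library of the strain, chosen after the data were seen, moved at least 1 of these counts by over 1.5 times in each strain, with the all-gene shares of the same fit given in brackets. C57BL/6J had 13 higher and 3 lower without replicate 2 (6.56% and 3.56%) and 12 and 3 without replicate 4 (6.15% and 2.91%). For 129S1/SvImJ the counts were 12 and 1 without replicate 1 (6.03% and 3.66%), 9 and 1 without replicate 2 (6.1% and 3.68%) and 12 and 2 without replicate 3 (7.34% and 5.8%). A/J had 9 and 4 without replicate 2 (11.9% and 7.83%) and again without replicate 3 (8.37% and 4.9%). In DBA/2J 3 and 2 were called without replicate 2 (6.45% and 2.12%) and 1 and 4 without replicate 3 (6.2% and 2.03%). NOD/ShiLtJ had 1 higher with any 1 of its libraries left out, and 7, 7 and 6 lower without replicate 1, 2 and 3 (5.9% to 6.18% higher and 3.03% to 3.46% lower). In NZO/HlLtJ they were 6 and 5 without replicate 1 (8.46% and 5.57%), 5 and 8 without replicate 2 (8.25% and 5.77%) and 5 and 6 without replicate 3 (11.1% and 9.8%). WSB/EiJ had 14 and 4 without replicate 2 (12% and 6.46%) and 8 and 8 without replicate 4 (11.7% and 6.13%), CAST/EiJ 14 and 8 without replicate 5 (15.7% and 13.2%), and PWK/PhJ 4 and 11 without replicate 2 (16% and 10.5%). The widest ranges were in fatty acid hydroxylases of the Cyp4a cluster and in 2 further genes. Cyp4a14 had means of 2049 ± 59.5 CPM in A/J, 1813 ± 565 in C57BL/6J, 1351 ± 129 in 129S1/SvImJ, 1183 ± 1480 in WSB/EiJ, 1058 ± 477 in DBA/2J, 736 ± 318 in NZO/HlLtJ, 495 ± 95.9 in NOD/ShiLtJ, 289 ± 110 in CAST/EiJ and 14.97 ± 3.39 in PWK/PhJ. Cyp4a31 had its highest mean in PWK/PhJ, at 124 ± 48.9 CPM, and its lowest in NOD/ShiLtJ, at 2.04 ± 0.583, and Cyp4a32 ran from 9.03 ± 2.59 in NZO/HlLtJ to 356 ± 35.1 in A/J. Cyp4a12a ran from 0.139 ± 0.128 CPM in C57BL/6J to 32.9 ± 35.8 in CAST/EiJ. Counts of Cyp4a31 and Cyp4a32 were not whole in all 27 libraries, so their split between copies is uncertain, as it is for Cyp4a12a, whose counts were not whole in 24 libraries. Cd36, a fatty acid transporter of the cell surface, was at 6.95 ± 0.825 CPM in NOD/ShiLtJ and between 81.3 ± 42.3 in DBA/2J and 235 ± 72.1 in WSB/EiJ elsewhere. Pparg, the related receptor of fat storage, ran from 0.107 ± 0.0339 CPM in PWK/PhJ, where its libraries held 2 to 4 counts, to 6.46 ± 0.35 in 129S1/SvImJ.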

How the data were processed

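Poly-A RNA libraries were made with a TruSeq kit, per the labels' protocols, from hepatocytes of 9 strains with 3 libraries each. The authors deposited 1 table of estimated counts per gene, of which 14.71% of values are not whole numbers. The submitters' processing notes name FastQC 0.11.5, DESeq2, GRCm38 and mm10, with no role given. Aligner, counter, annotation and the genome used for each strain are not given in the sources used here, so how reads that differ from a reference were counted in each strain is not known and was not tested. All 27 columns were matched to samples by name.

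Counts were rounded to whole numbers and filtered with filterByExpr with strain as the group, which left 14482 genes. Libraries were scaled by TMM, with factors from 0.722 to 1.226, and fitted with edgeR's quasi-likelihood model over all 9 strains, with an F test for any difference and a contrast of each strain against the mean of the other 8. Adjusted p-values are Benjamini-Hochberg over all genes tested, with a threshold of 0.05. Plots use log2(CPM + 0.5). R 4.3.3, edgeR 4.0.16, limma 3.58.1, DESeq2 1.42.0, Python 3.11.15, numpy 2.4.6, pandas 2.3.3, matplotlib 3.10.9 and biopython 1.88 were used. Symbols and coordinates are from GENCODE M21 and promoter windows from RefSeq.

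Values in every strain are given for Ppara, Cpt1a, Acadm, Hadha and Ehhadh and for the 15 genes with the widest range among those that differed. The 6 other pathway genes with the widest range are named too, and the remaining genes named were chosen after their values were seen. The genes and lists were chosen with earlier results of these data known. Alternatives were DESeq2, other scaling and filters, a replicate block, marker covariates and leaving out each library, and, added after seeing the data, sums of near-identical copies and counts for the other pathway genes with a library left out. P-values measure only the spread between the libraries labelled as biological replicates, which the labels do not tie to separate mice.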

Additional observations from a re-analysis of the deposited data

How the results depend on the processing

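The count of genes that differed among strains was 31, against 74.2% of all genes tested. Brackets give the share of all genes called in the same fit. The count was 34 with DESeq2 (79%), 31 with median-of-ratios scaling (74.7%) and 32 without a filter (46.4%). It was 30 with a mean of at least 10 counts (76.2%), 33 with the marker covariates (68%) and 27 with a replicate block (64.6%). With 1 library left out it ran from 26 to 38 (69.7% to 75.6%). With the Kupffer and endothelial list means as covariates 5 genes were called in C57BL/6J in place of 9 (4.03% of all genes higher, 2.87% lower). The count was 5 in 129S1/SvImJ in place of 10 (6.64% and 4.31%) and 14 in DBA/2J in place of 9 (12.9% and 7.05%). NZO/HlLtJ had 2 in place of 6 (7.13% and 4.79%) and WSB/EiJ 14 in place of 9 (20.2% and 13.2%). Counts with 1 library left out at a time follow, with the all-gene shares higher and lower in brackets. C57BL/6J had 5 to 13 (6.15% to 13.8% and 2.91% to 8.68%) and 129S1/SvImJ 3 to 15 (6.03% to 12.4% and 3.66% to 8.87%). A/J had 6 to 11 (8.37% to 18.2% and 4.9% to 13.1%) and DBA/2J 3 to 11 (6.2% to 10.3% and 2.03% to 4.12%). NOD/ShiLtJ had 1 to 7 (5.9% to 9.79% and 3.03% to 5.89%) and NZO/HlLtJ 1 to 8 (8.25% to 16.5% and 5.57% to 14.1%). WSB/EiJ had 2 to 11 (10.5% to 17% and 5.4% to 10.3%) and CAST/EiJ 5 to 16 (14.4% to 21.2% and 12.6% to 18.3%). PWK/PhJ had 9 to 18 (14.1% to 19.8% and 10.5% to 14.9%). The cause was not tested. For the 17 genes with values in every strain, the most extreme strain was picked from these same data. The alternatives reuse most of the libraries, so a kept direction was likely beforehand. The difference in that strain kept its direction under the alternatives run. Other differences did not all do so: the median log2 fold change of the 41 genes went from 0.16 to -0.19 in C57BL/6J without replicate 1, from 0.12 to -0.03 in CAST/EiJ without replicate 4, and from 0.03 in A/J to -0.09 without replicate 1 and -0.03 without replicate 2. DESeq2 in addition called Hadha higher in CAST/EiJ and Acot3 lower in PWK/PhJ.

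Replicate numbers were not taken to pair the libraries, since no label ties a number to a shared litter, batch or day. By the data, same-numbered libraries of different strains had a mean correlation of deviations of 0.016, and 23 of 76 pairs were over 0.1. Of the 27 libraries, 9 correlated best with one of their own number. Of the 7 strains with a replicate 1, that library had the highest immediate early gene mean in 6 and the lowest endothelial and stellate cell marker means in 6 each, and the part of this in the counts was not tested. With the replicate block 3 genes were called in NOD/ShiLtJ in place of 5 and 3 in CAST/EiJ in place of 10. The shares of all genes fell too. They went from 9.2% higher and 5.72% lower to 7.73% and 4.67% in NOD/ShiLtJ, and from 20.1% and 17.8% to 12% and 10% in CAST/EiJ.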
